A study of Drosophila melanogaster with 66 samples.

Results

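The head gap genes oc (orthodenticle), btd (buttonhead), ems (empty spiracles) and cnc (cap'n'collar) were taken by name and placed with a gene table of Release 6 of the Drosophila melanogaster genome (dm6). They are 4 of 13911 protein-coding genes with a place on X, the arms of the large autosomes or chromosome 4. The peak lists are regions of enrichment from chromatin immunoprecipitation followed by sequencing in sexed embryos, for CLAMP (a DNA-binding zinc finger factor with a preference for GA repeats), for H4K16ac (acetylation of histone H4 at lysine 16) and, in males, for MSL3 (a subunit of the male-specific lethal complex, which deposits H4K16ac on the male X). There are 25 lists, 10 for CLAMP and 10 for H4K16ac (2 sexes, 5 stages) and 5 for MSL3. A region was assigned to a gene when it overlapped the gene or the 10 kb on either side.

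All embryos had yw; attP2{PCNA-EGFP} mothers, so that every group, both sexes alike, carries the maternal GFP transgene by which nuclear cycles were sorted. Fathers were segregation distorter males with SPSD/SD72 second chromosomes. Those of the female embryos carried the duplication Dp(2:y)CB25-4 marked with y+, together with Rsp[s]B[s], beside a wild-type X. Those of the male embryos carried 19-3, yw, Rsp[s]-B[s] over Y. In each cross sperm of 1 kind were favoured, so that offspring were of a single sex. The stages are nuclear cycles 11, 12, 13 and 14, with 200 pooled embryos a sample, and embryos of 2-4 h. Whole embryos were used, so that head and trunk nuclei are mixed in each list, and bound in fewer nuclei or more weakly in all cannot be told apart. Each sex, stage and target has 1 list. No value below therefore has a replicate error, no difference between lists could be tested, and depth is unknown. The fold enrichment over the local background is the value the authors' peak caller gave. It is not scaled between lists, so that levels are compared between sites of the same list and otherwise given as values.

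Head gap genes are switched on in overlapping bands at the anterior of the blastoderm embryo under the Bicoid gradient and terminal signalling, and their loss removes neighbouring head segments. Otd, the product of oc, and Ems are homeodomain proteins, Btd is a zinc finger protein of the Sp family, and Cnc is a bZIP protein that patterns the mandibular and labral parts of the head and has a longer isoform in the oxidative stress response.

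CLAMP regions lay near the 4 genes in 35 of 40 combinations of gene and list, and 159 regions in all. In female lists 4, 4, 4, 3 and 4 of the genes had a region at cycles 11, 12, 13, 14 and 2-4 h, where the share of all protein-coding genes was 63.1, 26.3, 49, 10.2 and 86.4%. In male lists 1, 3, 4, 4 and 4 had one, beside 2.55, 9.74, 58.6, 71.4 and 85.9% of all genes. Over the gene itself, 4, 4, 4, 2 and 4 had a region in females, beside 22.9, 7.91, 16.2, 2.76 and 51.7% of all genes. In males 0, 2, 4, 4 and 4 did, beside 0.776, 2.95, 20.4, 22.8 and 49.2%. Long genes are met more often, and oc and cnc are both over 20 kb. Of the 1011 genes of at least 20 kb, 55.1 and 85.3% had a region in females at cycle 13 and 2-4 h, and 60.8 and 83.5% in males. By gene, oc had a region in 10 of 10 lists, btd and ems in 9 and cnc in 7. Of all genes, 1.41% had one in 10 lists, 6.3% in at least 9 and 23.8% in at least 7. The windows differ in length, from 22768 bp for ems to 61132 bp for cnc, and longer windows hold more regions.

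Regions that overlap between the 10 CLAMP lists were joined into 41 sites, 14 near oc, 7 near btd, 7 near ems and 13 near cnc. Of these, 4 were in 9 or 10 lists, and their highest fold was between 24.99 and 36.3. The 10 sites in 5 to 8 lists reached between 3.98 and 23.64, the 12 in 2 to 4 lists between 3.0 and 9.73, and the 15 in 1 list between 1.83 and 6.97. Of those 15, the male cycle 14 list alone held 12. These highest folds are taken over different numbers of lists, so that a site in more lists has more chances of a high value. They are also pooled over lists without scaling, and the highest fold of a CLAMP list ran from 13.05 to 50.46. A site in 9 or 10 lists had to be in short lists too, so the classes are not ranked by fold here. The only region of the male cycle 11 list near the 4 genes lay at oc, the 5 of male cycle 12 at 2 sites of oc, 2 of btd and 1 of ems, and the 4 of female cycle 14 at those sites without the farther one of btd.

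**Figure D1:**
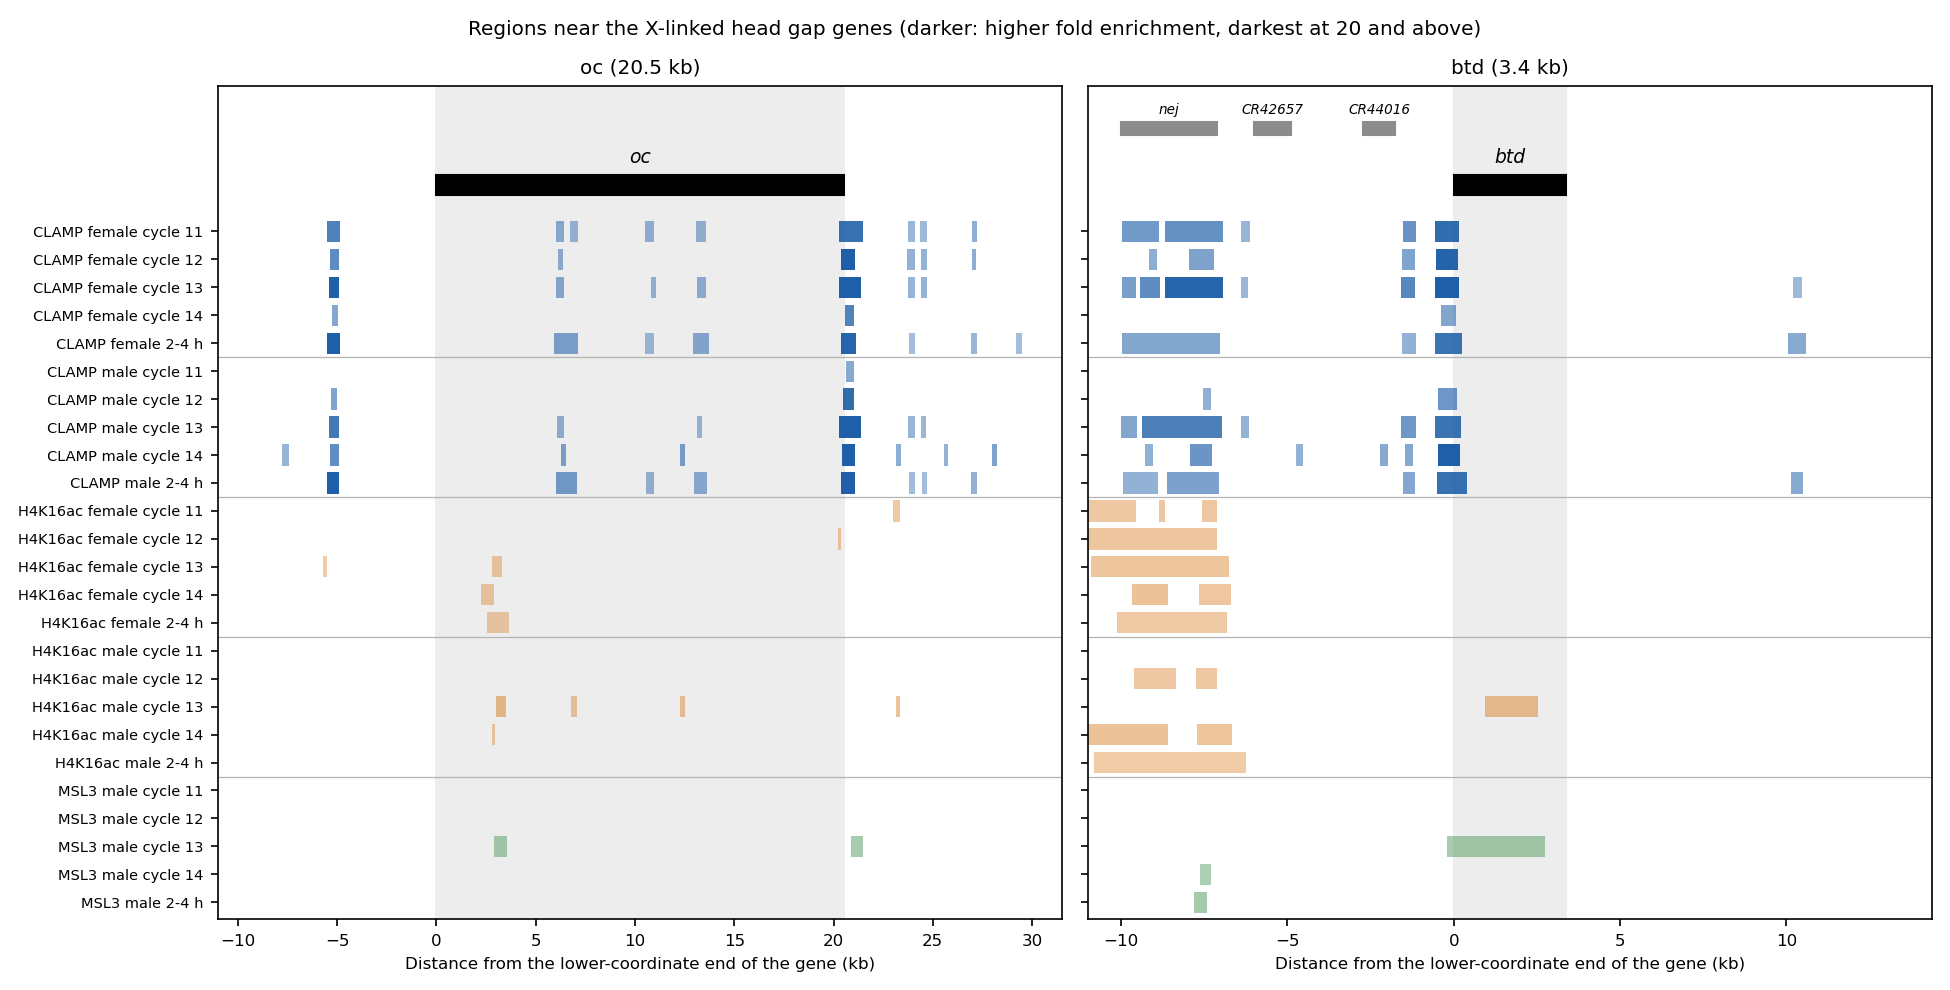
Regions of the 25 lists near oc and btd, with the distance in kb from the lower-coordinate end of each gene on the x axis and 1 list a row (blue CLAMP, orange H4K16ac, green MSL3; black and grey bars are genes, neighbours drawn to 10 kb, and darker regions have a higher fold). The CLAMP site at the upper end of oc appears in all 10 CLAMP lists and the one at the lower end of btd in 9, while H4K16ac near btd lies over nej except at male cycle 13.

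The gene table gives no strand, so the ends of a gene are called lower and upper by coordinate. At oc (Dmel_CG12154, X 8630159 to 8650681, 20523 bp) the site found in every CLAMP list lay across the upper end (X 8650437 to 8651642). Its summit was 0.268 kb outside the gene, and the summits of the 10 lists fell within 43 bp. Fold enrichment there was 16.6, 24.5, 36.3, 13.2 and 19.1 in females at cycles 11 to 14 and 2-4 h. In males it was 5.72, 17.6, 21.2, 25.1 and 19.7. Its region ranked first of 604 at male cycle 12 and first of 4959 at male cycle 13, and second at female cycles 12, 13 and 14 (of 1811, 3916 and 529). It ranked 15 of 5462 at female cycle 11, 26 of 8393 at male cycle 14, 49 of 10435 and 97 of 10466 in the female and male 2-4 h lists, and 25 of 133 at male cycle 11.

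Another strong site lay 5.15 kb below the lower end of oc (X 8624660 to 8625314), in every list but male cycle 11. No other annotated gene lies in the window of oc. In females its fold was 13.4, 11.35, 24.5, 6.17 and 21.9, and in males from cycle 12 on it was 6.77, 14.97, 10.98 and 24.99. The order of the oc sites by fold within a list changed with stage. The fold at the upper end was 1.24, 2.16, 1.48 and 2.14 times that of the lower site in females at cycles 11 to 14, and 2.6, 1.42 and 2.29 times in males at cycles 12 to 14. In both 2-4 h lists the lower site was the higher by fold, with ratios of 0.87 in females and 0.789 in males. By −log10 q the upper-end site was the higher in every list that held both. At 2-4 h its −log10 q was 2472.51 against 1495.46 in females and 1373.2 against 930.34 in males. No list has a replicate, so the error of these ratios is not known.

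A region among the top 1% of its list by fold lay within 10 kb of oc in all 9 CLAMP lists of at least 500 regions. This held for 1 of 13911 protein-coding genes, or 0.00719%, and that gene was oc. The rule was set after the ranks of oc had been seen. By the same rule btd had such a region in 5 of the 9 lists, ems in 3 and cnc in 2. Of all genes, 0.288% had one in at least 5 lists, 0.913% in at least 3 and 2.4% in at least 2.

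Weaker CLAMP sites at oc lay inside the gene and above its upper end, apart from one 7.68 kb below the lower end at male cycle 14 (fold 3.59). The site 5.94 to 7.12 kb from the lower end was in 7 lists with folds between 3.9 and 7.81, and that at 12.92 to 13.71 kb in 5 lists, between 2.11 and 5.14. The sites 23.71 to 24.12 kb and 24.37 to 24.71 kb from the lower end, above the gene, were in 6 and 5 lists with folds up to 4.02 and 3.98. The male cycle 14 list alone held 5 of the 14 sites.

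At btd (Dmel_CG12653, X 9694186 to 9697558, 3373 bp) the leading CLAMP site lay across the lower end (X 9693616 to 9694578), in every list but male cycle 11. Its summit was 0.19 kb outside the gene and moved by at most 81 bp between lists. Fold was 17.6, 19.2, 25.1, 6.31 and 15.99 in females and 9.29, 16.2, 23.4 and 16.7 in males from cycle 12 on. The region ranked 11 of 5462 at female cycle 11 and 14 of 1811 at female cycle 12, but 116 of 10435 and 195 of 10466 in the female and male 2-4 h lists. A smaller site 1.35 kb below the gene was in 7 lists, and the fold at the gene end was between 1.78 and 3.96 times the fold there.

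Farther below btd, CLAMP regions lay over the upper-coordinate end of nej, which encodes the acetyltransferase CBP. The joined site (X 9684190 to 9687259) was in 8 lists. Its highest fold in each list was 10.2, 7.01, 18.9 and 6.33 in females at cycles 11, 12, 13 and 2-4 h, and 4.26, 13.7, 9.5 and 7.16 in males from cycle 12 on. On the other side, a site 6.95 kb above btd appeared at female cycle 13 and in both 2-4 h lists, with a fold between 2.65 and 5.55. It lies on the side of Sp1, the neighbouring gene of the same zinc finger family, which starts 32.1 kb above btd.

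**Figure D2:**
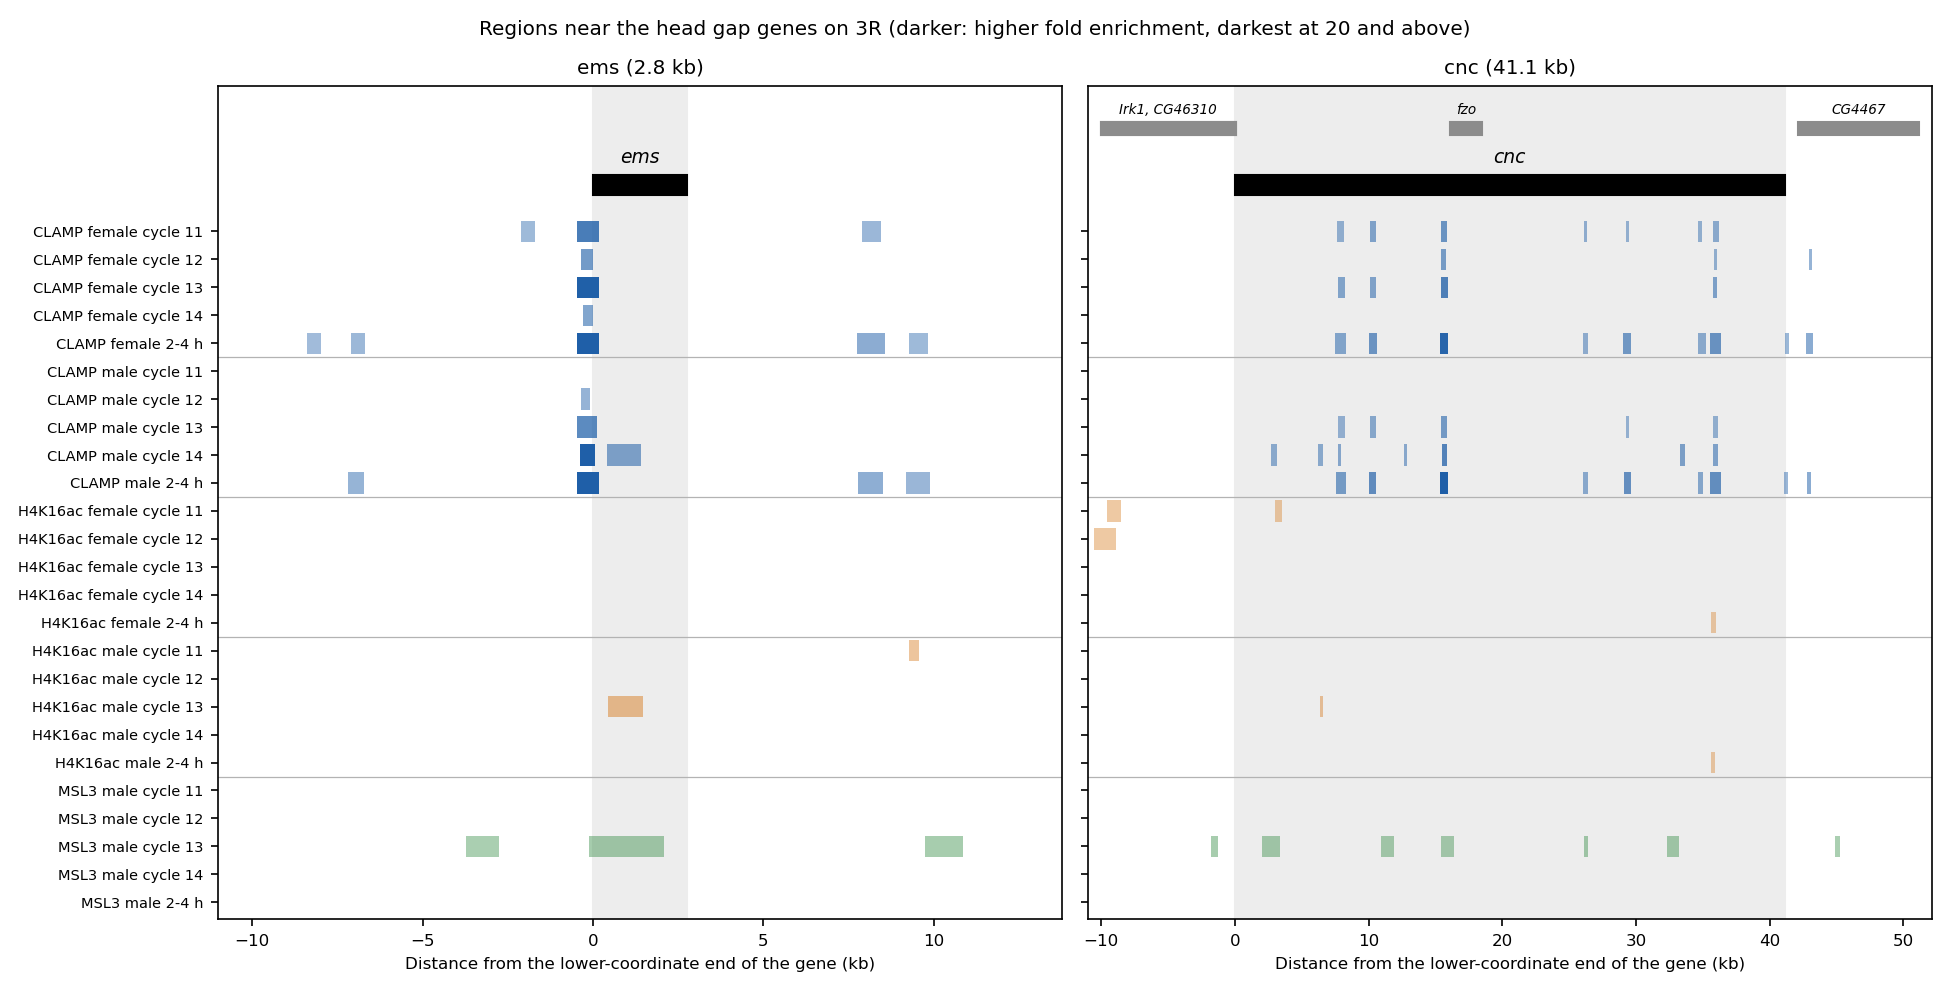
Regions of the 25 lists near ems and cnc, drawn as for oc and btd, with distance in kb from the lower-coordinate end of each gene. CLAMP lies at the lower end of ems in 9 of 10 lists and over several sites inside cnc, with the strongest 15.7 kb from its lower end, and MSL3 is seen at male cycle 13 alone.

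At ems (Dmel_CG2988, 3R 13901853 to 13904620, 2768 bp) the leading CLAMP site again lay across the lower end (3R 13901370 to 13902040), with its summit 0.17 kb outside the gene and within 36 bp in 9 lists. Fold was 14.2, 8.44, 19.9, 6.31 and 20.8 in females. In males it was 3.67, 11.55, 26.1 and 24.3 from cycle 12 on, and male cycle 11 had no region. At male cycle 12 it ranked 524 of 604, where the site of oc was first. In the 2-4 h lists it ranked 27 of 10435 in females and 28 of 10466 in males.

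Of the 6 other sites near ems, 3 were in 2-4 h lists alone, which are also the longest lists. Those 6.92 kb below the lower end and 6.73 kb above the upper end of the gene were in both 2-4 h lists and in no other, and one 8.14 kb below was at female 2-4 h alone (fold 2.09). The site 5.53 kb above the upper end was in those lists and at female cycle 11, with folds between 2.98 and 5.04. A site 1.84 kb below the gene was at female cycle 11 alone, with a fold of 2.48. A site inside ems (3R 13902268 to 13903277) was in the male cycle 14 list alone, with a fold of 6.25.

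At cnc (Dmel_CG43286, 3R 23185580 to 23226711, 41132 bp) CLAMP lay mostly inside the gene, at 11 of 13 sites. The strongest (3R 23200909 to 23201546) was 15.7 kb from the lower end, just below fzo (3R 23201644 to 23204034), a mitofusin gene nested in cnc. It was in 7 lists, with summits within 45 bp. Fold was 8.78, 7.0, 12.96 and 18.66 in females at cycles 11, 12, 13 and 2-4 h, and 7.5, 12.26 and 23.64 in males at cycles 13, 14 and 2-4 h. Male cycles 11 and 12 and female cycle 14, the shortest lists, had no region near cnc. A site 5.19 kb inside the upper end (3R 23221142 to 23221957) was in the same 7 lists at a lower fold, between 3.08 and 10.04. The ratio of the stronger to this weaker site stayed between 2.07 and 2.44.

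**Figure D3:**
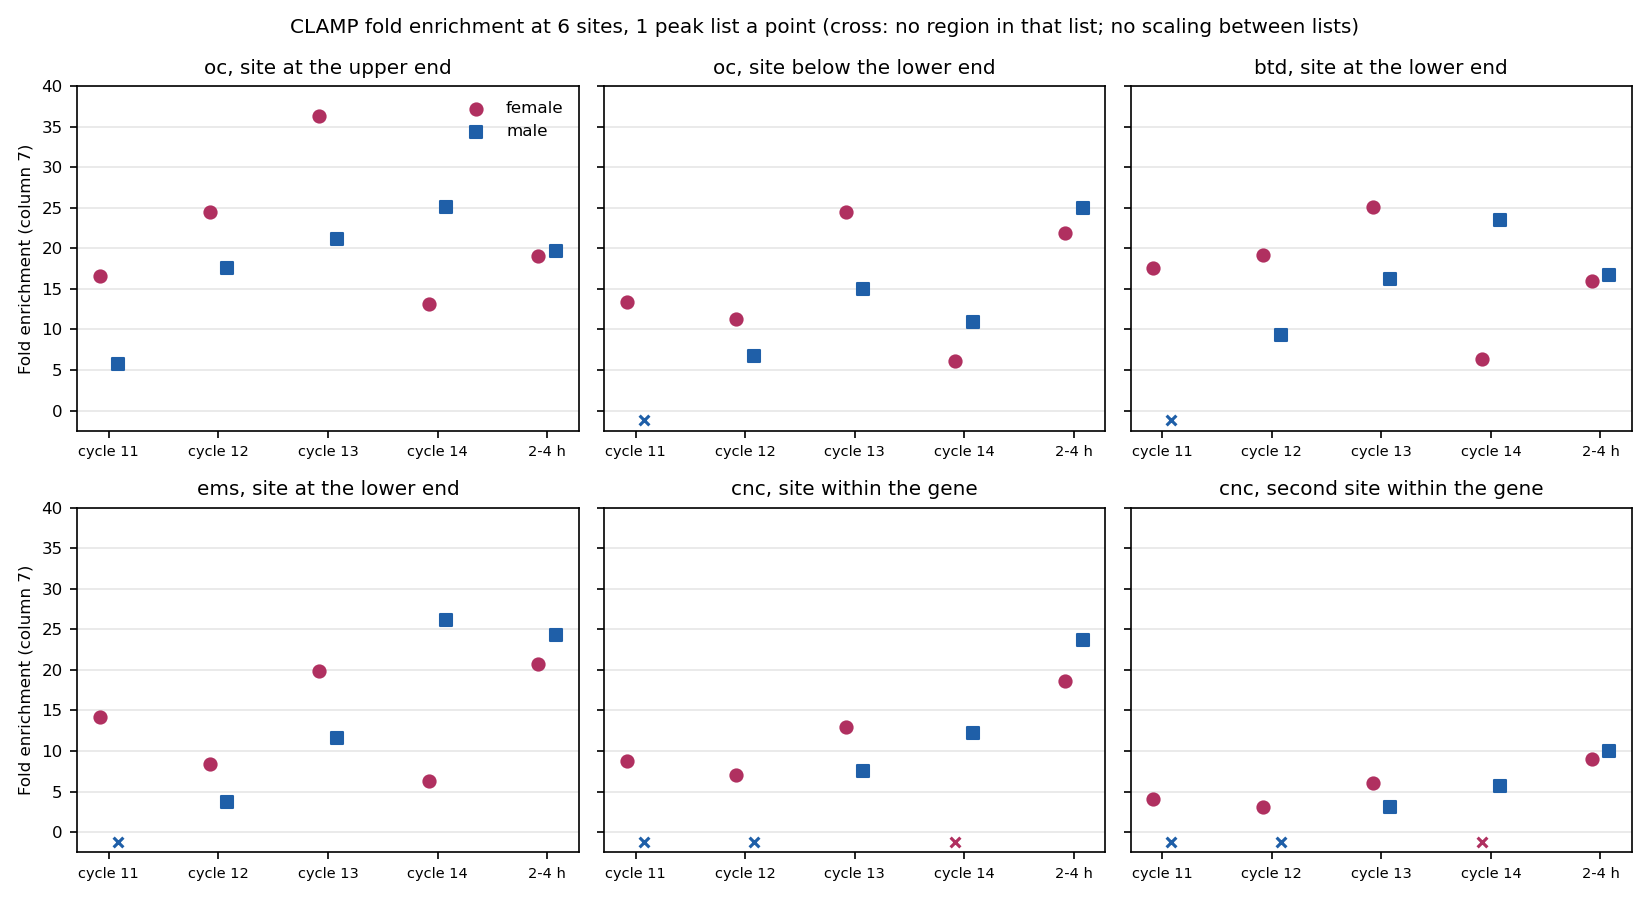
Fold enrichment (y axis, as the authors' peak caller gave it) of CLAMP at 6 sites near the head gap genes by stage (x axis), with 1 peak list a point, circles for females, squares for males and crosses where a list has no region. Values have no scaling between lists, so the order of sites within a stage can be read and the course over stages cannot. At 2-4 h the ems site lies above the oc upper-end site by fold in both sexes (20.8 against 19.1 in females, 24.3 against 19.7 in males). By −log10 q, not drawn, the order at female 2-4 h was the reverse (1701.91 for ems against 2472.51 for oc).

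A CLAMP region lay over an end of btd in 9 lists, over an end of oc and of ems in 8, and over an end of cnc in 2. Among all genes 0.381% had a region over an end in at least 9 lists, 0.726% in at least 8 and 41.8% in at least 2. Set against the upper-end site of oc in the same list, the ems site was at 0.855, 0.344, 0.548 and 0.479 of its fold in females at cycles 11 to 14 and at 1.09 at 2-4 h. In males these ratios were 0.208, 0.545, 1.04 and 1.23 from cycle 12 on. The main cnc site was at 0.528, 0.286 and 0.357 of the oc fold in females at cycles 11 to 13 and at 0.978 at 2-4 h. In males it was at 0.354, 0.488 and 1.2 at cycles 13, 14 and 2-4 h. The btd site had no such order, with ratios between 0.479 and 1.06 in the 9 lists, between 0.838 and 0.846 in the 2-4 h ones. By fold, the ratios of ems and cnc to the upper-end site of oc were highest at 2-4 h within each sex. By −log10 q this held in males and not in females. In females at cycle 11 ems had 239.87 and cnc 130.01, against 298.5 at the upper-end site of oc. At female 2-4 h they had 1701.91 and 674.25 against 2472.51. Against the lower site of oc, the ratio by fold was highest at 2-4 h for cnc in females alone. In females ems had a fold of 14.22 against 13.39 there at cycle 11 and 20.77 against 21.92 at 2-4 h. In males at cycle 14 ems had 26.11 and cnc 12.26 against 10.98, and at 2-4 h they had 24.32 and 23.64 against 24.99.

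Between the sexes, most regions near the 4 genes in the shorter list of a stage were also in the longer list. At cycle 13 males had 16 of 17 regions in common with females (94.1%, beside 68.5% for all male regions) and females 17 of 19 with males (89.5%, beside 88.2%). In the 2-4 h lists 25 of 26 male regions (96.2%, beside 92.1%) and 24 of 26 female ones (92.3%, beside 89.1%) were shared. At cycle 11 the female list had 24 regions near the genes and the male list 1, which the female list shared. Of whole lists 1.45% of the female and 61.7% of the male regions were shared, and the lists held 5462 and 133 regions. At cycle 12, 5 of 14 female regions (35.7%, beside 30.5%) and 5 of 5 male regions (100%, beside 93.8%) were shared. At cycle 14 it was the female list that was short, with 529 regions against 8393, and 4 of its 4 regions (100%, beside 71%) and 4 of 23 male regions (17.4%, beside 4.43%) were shared. Near btd, ems and cnc CLAMP was thus listed in females and not in males at cycle 11, as for 60.8% of all genes. Near cnc this was so at cycle 12 too, as for 16.9%, and CLAMP was listed in males and not in females at cycle 14, as for 61.7%.

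Most regions of the earlier lists were in the 2-4 h list too, with male cycle 14 as the exception. Of the female regions near the genes at cycles 11 to 14, 21 of 24, 13 of 14, 17 of 19 and 4 of 4 were found at female 2-4 h (87.5, 92.9, 89.5 and 100%, beside 95.4, 94.1, 96.4 and 94.5% of whole lists). In males 1 of 1, 5 of 5, 16 of 17 and 11 of 23 were found at male 2-4 h. The male cycle 14 list stood apart over the whole genome as well, where 23.9% of its regions were found at 2-4 h, beside 80.5 to 95.5% for the other male lists. Its 12 regions near the genes that were not found there had folds up to 6.97, and 4 of the 12 (33.3%) were overlapped by H4K16ac of male cycle 13, beside 47% of all such regions of the list. Of the 11 that were found there 0 were, beside 27.7% of all. MSL3 of male cycle 13 overlapped 2 of the 12 (16.7%, beside 61.6%) and 4 of the 11 (36.4%, beside 31.7%). The coordinates of the 4 regions under H4K16ac were as follows. At oc the male cycle 14 CLAMP regions X 8642434 to 8642681 and X 8653322 to 8653545 met the male cycle 13 H4K16ac regions X 8642440 to 8642660 and X 8653311 to 8653527. In ems the CLAMP region met the H4K16ac region 3R 13902306 to 13903327, and in cnc 3R 23191842 to 23192186 met 3R 23191948 to 23192147.

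Looking back from 2-4 h, the share of regions near the head gap genes found in an earlier list was above that of the whole list in all 8 pairs of lists. Of the 26 female ones, 19 were found at cycle 11 (73.1%, beside 44.9%), 12 at cycle 12 (46.2%, beside 15.2%), 15 at cycle 13 (57.7%, beside 32.3%) and 4 at cycle 14 (15.4%, beside 4.61%). Of the 26 male ones, 1, 5, 16 and 11 were found at cycles 11 to 14. These are 3.85, 19.2, 61.5 and 42.3%, beside 0.967, 5.32, 40.7 and 18.3%. Regions of 1 gene are not independent, so these shares have no test.

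Outside male cycle 13, H4K16ac covered little of the 4 genes. With male cycle 13 counted, oc had a region over it in 6 of 10 lists. Regions lay within 10 kb in 23 of 40 combinations of gene and list, 33 regions in all, and over the gene itself in 12. At cycles 11 to 14 and 2-4 h, 3, 3, 2, 2 and 3 genes had a region within 10 kb in females, where 73, 71.5, 75, 77.4 and 83.5% of all genes did. In males 1, 1, 4, 2 and 2 had one, beside 32.4, 70.3, 80.4, 80.2 and 83.3%. Over the gene 1, 1, 1, 1 and 2 had one in females, beside 45.1, 43.2, 49.2, 50.3 and 55.4% of all genes. In males 0, 0, 4, 1 and 1 did, beside 9.24, 41.1, 44.6, 57.8 and 56.6%. By gene, btd had H4K16ac within 10 kb in 9 lists, oc in 7, cnc in 5 and ems in 2. Of all genes, 71.7% had it in at least 7 lists, 25.5% in at most 5 and 17.4% in at most 2. With a −log10 q of at least 5 the lists were 6 for btd, 1 for oc, 1 for ems and 0 for cnc, and without the male cycle 13 list ems had 1. The share of all genes was not counted at that threshold, so whether other genes fall as much is not known.

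Of the 40 values of body cover, the percent of a gene that regions of a list cover, 28 were 0 and none reached 50%. In females 3, 3, 3, 3 and 2 of the 4 genes had 0%, beside 54.9, 56.8, 50.8, 49.7 and 44.6% of all genes. In males 4, 4, 0, 3 and 3 did, beside 90.8, 58.9, 55.4, 42.2 and 43.4%. Of genes of at least 20 kb, as oc and cnc are, 57.6, 56.9, 49, 44.2 and 29.6% had 0% in females. In males 88.5, 59.9, 27.4, 35 and 30.3% did. The share of all genes at or above 50% was 12.6, 10.3, 17.9, 16.1 and 11.5% in females and 0.532, 8.52, 9.48, 24.3 and 15.9% in males. Outside the male cycle 13 list the highest value was 5.55%, for oc in females at 2-4 h. In that list the covers were 5.24% for oc, 46.6% for btd, 36.9% for ems and 0.486% for cnc.

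**Figure D4:**
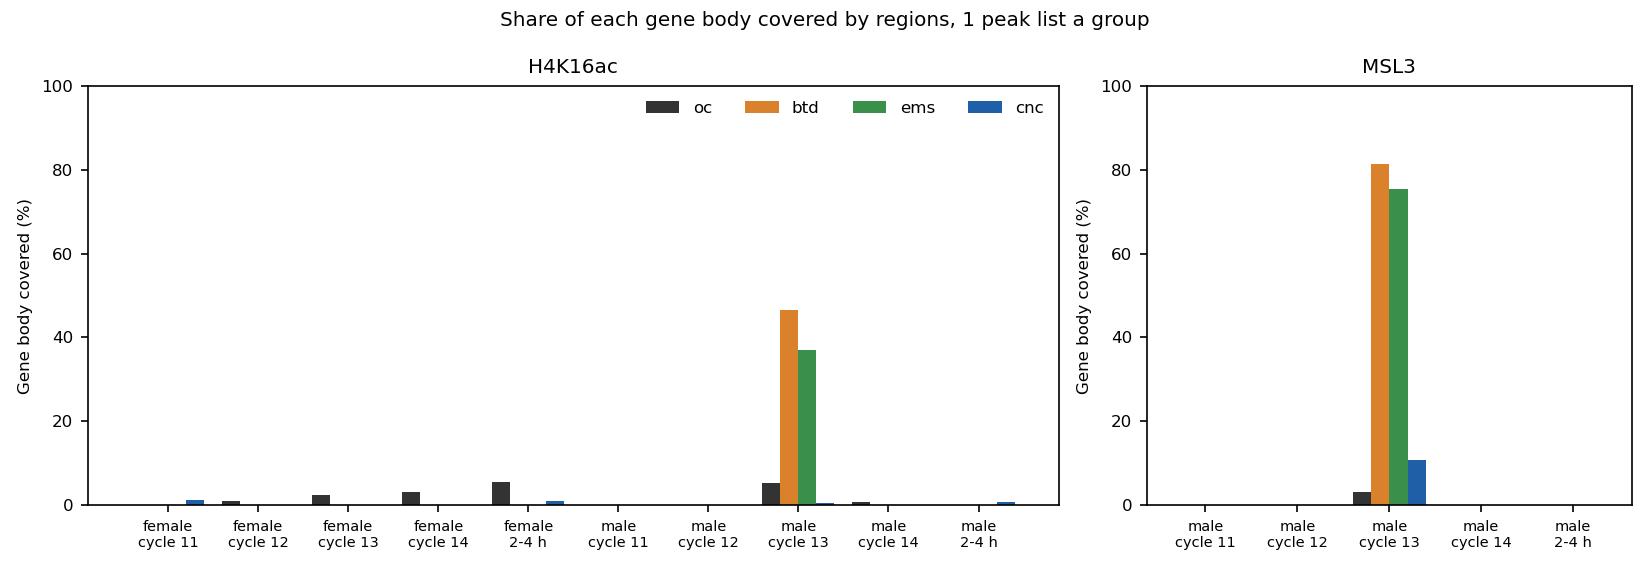
Percent of each gene body covered by H4K16ac (left) and MSL3 (right) regions, with 1 bar for each gene in each list and no error bars because a group has 1 list. Nearly all bars are at or near 0 except at male cycle 13, where btd reaches 46.6% for H4K16ac and 81.3% for MSL3 and ems 36.9% and 75.4%.

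Near oc, females had H4K16ac in all 5 lists and males in 2. A region near oc was listed in females and not in males at cycles 11, 12 and 2-4 h, as for 40.9, 2.68 and 1.67% of all genes. Near cnc this was so at cycles 11 and 12, and near btd at cycle 11. The female cycle 12 region near cnc ended 8.85 kb below the gene, over the neighbouring genes Irk1 and CG46310. At female cycle 11 the stronger region near cnc also lay over them, and the weaker lay inside cnc. Near ems a region was listed in males and not in females at cycle 11, as for 0.395%, and near ems and cnc at cycle 13, as for 10.3%. The female regions near oc were weak. The strongest of each list had a fold of 2.41, 2.26, 2.0, 2.28 and 1.59 and a −log10 q of 1.87, 1.74, 1.67, 1.93 and 1.84, where the lists start at 1.3. A region between 2.24 and 3.67 kb from the lower end was listed in females at cycles 13, 14 and 2-4 h, and regions of male cycles 13 and 14 lay within this span. The male cycle 13 region had a fold of 5.63 and a −log10 q of 6.66.

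Near btd, the H4K16ac regions lay over nej, or across its upper end. They ended between 6.23 and 7.11 kb below btd in 8 lists, male cycle 11 had none within 10 kb, and at male cycle 13 the region lay inside btd instead. H4K16ac covered 69.3, 29.3, 37, 63.3 and 19.8% of nej in females and 0, 10.4, 41, 92.4 and 52.1% in males. The cover of btd was 0% in each of these lists except male cycle 13.

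Around ems the nearest H4K16ac region was between 32.9 and 54.3 kb away in 8 of the lists. At male cycle 11 it was 6.49 kb away, and at male cycle 13 it lay inside the gene (fold 5.33, −log10 q 5.81). In cnc H4K16ac was listed over the gene at female cycle 11, male cycle 13 and in both 2-4 h lists. The 2-4 h regions of the sexes lay at the same place, 35.6 kb from the lower end, under the weaker CLAMP site of the 7 lists, with folds of 1.66 in females and 1.68 in males. Of the strongest CLAMP region of each gene in each list, 1 of 35 was overlapped by H4K16ac of the same sex and stage, that of oc at female cycle 12. Of all CLAMP regions near the genes, 8.33, 21.4, 15.8, 0 and 7.69% were in females and 0, 20, 0, 8.7 and 11.5% in males. Over whole lists these shares were 35, 29.9, 38.2, 21.9 and 57.9% and 18.8, 21, 21.8, 24 and 56.8%.

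MSL3 lay near the genes in 6 of 20 combinations of gene and list, 4 of them at male cycle 13. That list has 15149 regions, and 94.9% of all genes had one within 10 kb. Over the gene 0, 0, 4, 0 and 0 had a region at cycles 11 to 14 and 2-4 h, beside 0.151, 0.129, 64.3, 12.7 and 3.23% of all genes. It held 2 regions near oc, 1 near btd, 3 near ems and 7 near cnc. Cover was 3.12% for oc, 81.3% for btd, 75.4% for ems and 10.8% for cnc, and 21.3% of all genes were covered to at least 50%. The strongest of these regions had folds of 3.1 at oc, 3.02 at btd, 3.1 at ems and 2.96 at cnc, and none had a −log10 q of 5. The X genes and the 3R genes did not separate by fold in this list. The region inside oc (2.9 to 3.54 kb from its lower end) and those over btd and ems met the H4K16ac regions of male cycle 13 there, which is 3 of 13 MSL3 regions (23.1%), beside 34.2% of all MSL3 regions of the list.

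In that list MSL3 overlapped the strongest CLAMP region of each of the 4 genes and no other CLAMP region near them. This is 4 of 17 CLAMP regions (23.5%, beside 18% of all CLAMP regions) and 4 of 13 MSL3 regions (30.8%, beside 5.42% of all). The 4 CLAMP regions were 1097, 784, 584 and 424 bp wide, where the median of the list was 335 bp, and wider regions are met more easily. At male cycles 11 and 12, with 40 and 33 regions in the MSL3 lists, none lay near the genes, beside 0.733 and 0.503% of all genes. At cycle 14 and 2-4 h 1 region lay near btd, inside nej (fold 2.18 and 3.35), beside 31 and 11.9% of all genes with a region. MSL3 covered 80.3% of nej at cycle 14 and 6.92% at 2-4 h, and 0% of btd and oc.

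Other genes of early patterning were set beside the 4, in lists drawn up by role but with earlier results of these data known. The 6 trunk and terminal gap genes hb, Kr, kni, gt, tll and hkb had CLAMP within 10 kb in 6 to 9 lists, with a median of 8, where the 4 head gap genes had a median of 9 and all genes 5. Their strongest region at 2-4 h had folds between 3.66 and 16.01 in males and 3.27 and 13.92 in females. The head gap genes had 16.68 to 24.99 in males and 15.99 to 21.92 in females. At 2-4 h the ranges did not overlap in either sex, and the difference was not tested, because genes are not replicates. These folds are maxima over windows of unlike length. The windows of oc and cnc are 40523 and 61132 bp, and the longest of the 6 genes, hb, has 6843 bp beside its flanks. The 11 other head genes named below had 7.76 to 27.65 in males and 6.69 to 22.68 in females. The paralogs Sp1 and E5 had 18.92 to 19.93 and 14.59 to 16.49. Both lists overlap the range of the head gap genes. At male cycle 12 the trunk and terminal genes had 3.51 to 5.52, and oc, btd and ems had 17.61, 9.29 and 3.67. There the ranges overlapped, and no region lay near cnc. By fold, hkb (16.01), gt (15.87), tll (10.47) and Kr (9.95) led the trunk and terminal genes at male 2-4 h. None of the 6 had a region among the top 1% of the male 2-4 h list, and 3 of the 4 head gap genes did, beside 2.08% of all genes.

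Of 11 further genes that act in the head, slp1, slp2, croc, kn, D, lab, pb, Dfd, toy, so and Optix, the CLAMP count was 7 to 10 lists with a median of 8. Led by the eye gene toy (27.65), the Hox genes Dfd (21.81) and lab (19.93) and the eye gene Optix (20.6), 4 of them had a top 1% region at male 2-4 h. The 7 inputs and partners (bcd, tor, cic, cad, zld, maf-S and Keap1) had a median of 9 CLAMP lists, as the head gap genes had. Of these 7, 1 had a top 1% region, cad, a posterior determinant, at 24.39. The gene bcd itself, whose product activates head gap genes, had CLAMP in 9 lists and a strongest fold of 8.08. The neighbouring paralogs Sp1 of btd and E5 of ems, 32.1 and 26.9 kb away, had CLAMP in 9 lists each, with folds of 19.93 and 18.92 at male 2-4 h. For H4K16ac the medians were 3.5 lists for the trunk and terminal genes, 5 for the other head genes, 10 for inputs and partners and 6 for the head gap genes, beside 9 for all genes. These counts are within 10 kb. Over the gene itself oc, btd, ems and cnc had H4K16ac in 6, 1, 1 and 4 lists. The trunk and terminal genes hb, Kr, kni, gt, tll and hkb had it in 7, 4, 1, 1, 0 and 1. The share of all genes with H4K16ac over the gene in as many lists was not counted. In single lists 9.24 to 57.8% of all genes had it there. H4K16ac was listed within 10 kb of Sp1 in 1 list and of E5 in 3. All these genes had MSL3 within 10 kb at male cycle 13, as did 94.9% of all genes. At cycle 14, 0 of the 6 trunk and terminal genes, 2 of the 11 head genes and 3 of the 7 inputs and partners had it. The share of all genes at cycle 14 was 31%.

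**Figure D5:**
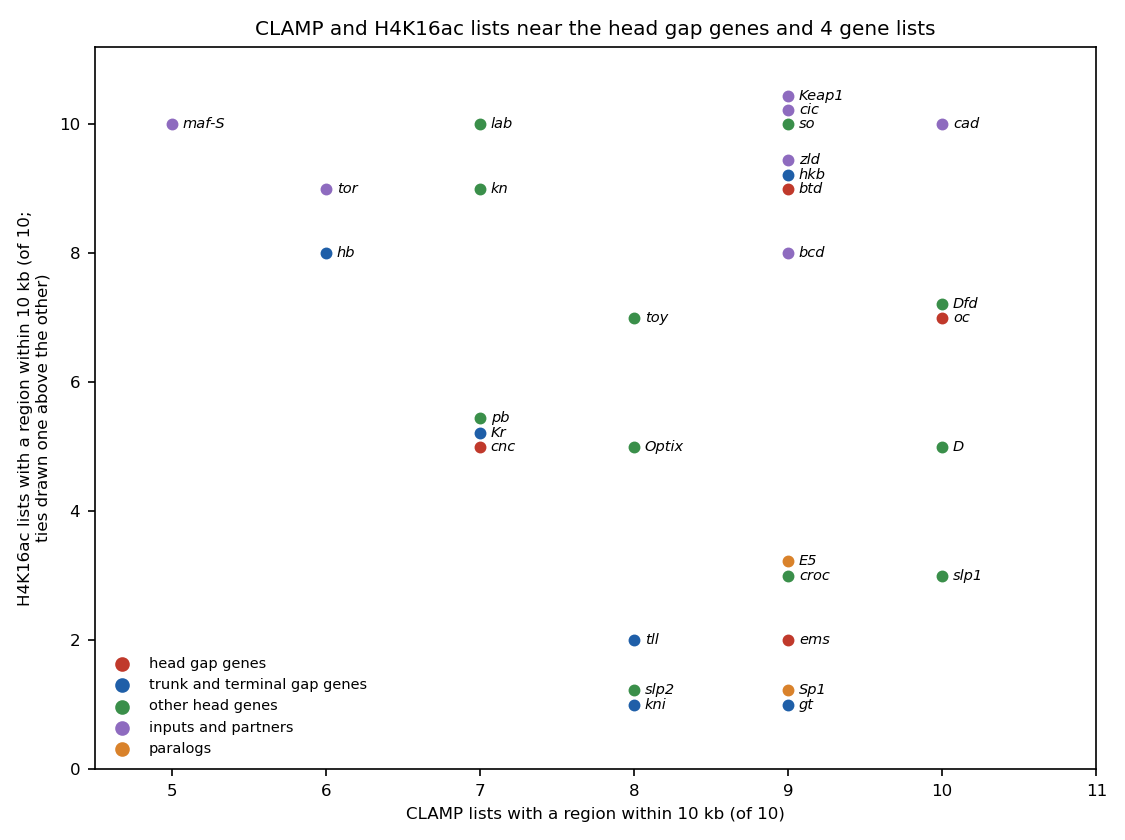
Number of CLAMP lists (x axis) and H4K16ac lists (y axis) of 10 each with a region within 10 kb, 1 point a gene, coloured by gene list. The head gap genes lie at 7 to 10 CLAMP lists and spread from 2 (ems) to 9 (btd) H4K16ac lists, among the points of the other patterning genes. Over btd itself H4K16ac was in 1 list, and in the others its regions lay over nej or across the end of nej.

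By presence or absence of a region within 10 kb over the 25 lists, with the difference of body cover over the 15 broad lists to break ties, slf on 2L was most like oc (24 lists alike), followed by CG32199 and Nepl8 (23 each). For btd, CG8945, CG11085 and futsch, all on X, were alike in 25 lists, as were 53 genes in all. Outside male cycle 13, the H4K16ac and MSL3 regions counted for btd lay over nej or across its end. For ems, CAH15, lbe (a homeobox gene) and CG11145 were alike in 24. For cnc, CG13737 and srp (a GATA factor gene) were alike in 24 lists and luna in 23. Other genes tied with those named: at 23 lists 15 genes agreed as much with oc and 22 with cnc, and at 24 lists 12 with ems. The median over all genes was 16 lists for oc, 18 for btd, 13 for ems and 18 for cnc. Among the 4 themselves, oc and btd were alike in 20 lists, oc and cnc and ems and cnc in 18, oc and ems and btd and cnc in 17, and btd and ems in 14.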

How the data were processed

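Peak lists were used as the authors deposited them. The submitters' processing notes name Bowtie2, Picard, SAMtools 1.9, MACS2 2.1.1 and dm6, without order or settings. The control library and any pooling of replicates are not given in the sources used here, and 9 groups have 2 samples but 1 list. The fold (a ratio over local background), −log10 p and −log10 q and the score of each region are the authors' deposited values. Summit offsets, in bp, were deposited in the narrow CLAMP lists. A region with several summits was counted once, with its highest fold and the summit of that fold. Depth is unknown, and IgG and input samples were not used here.

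Genes were placed with RefSeq annotation on Release 6, in a table that gives no strand. Overlap was at least 1 bp, gene windows had 10 kb flanks, and CLAMP regions overlapping across lists were joined into sites. Shares of genes are over 13911 protein-coding genes. No test was run, since a group has 1 list. The members and gene lists were chosen with earlier results of these data known. Always named were the 4 members, genes under a described region in their windows, up to 4 genes a list and target by fold at male 2-4 h, and the 3 genes most alike over lists. The other genes of the lists are named as members of their list, and bcd, Sp1, E5 and the nested or neighbouring genes for their role or place. The top 1% rule, the site ratios and the gene end rule were set after the values were seen. Overlap counting was tested on simulated data. Python 3.11.15, pandas 2.3.3 and numpy 2.4.6 were used.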

Additional observations from a re-analysis of the deposited data

How the results depend on the processing

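CLAMP near the 4 genes stayed within 1.5 times of 35 of 40 under every alternative: 32 over the gene alone, 35 with flanks of 1 or 5 kb, with −log10 q of at least 5 or with 50% of the region inside, and 31 of 36 without the male cycle 14 list. H4K16ac was listed in 23 of 40, in 12 with no flank or 1 kb, in 13 with 5 kb, where the regions over nej fall outside, and in 8 with −log10 q of at least 5. Without the male cycle 13 list it was 19. H4K16ac over the gene body fell from 12 to 2 with −log10 q of at least 5, and was 8 without the male cycle 13 list. MSL3 went from 6 of 20 to 0 with −log10 q of at least 5 and to 2 without the male cycle 13 list, which leaves the regions in nej. The causes were not tested beyond this. Leaving out a list was chosen after seeing the data. Shares of all genes were not counted at −log10 q of at least 5, so the falls at that threshold have no background beside them. Among counts for single genes, 52 of 72 stayed within 1.5 times. No paired analysis was possible because each group has 1 peak list and no test was run. Depth is unknown, so that a gene without a region in a short list may still be bound.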
